A study of Mus musculus with 24 samples.

Results

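Adrenergic receptors bind adrenaline and noradrenaline, and muscarinic receptors bind acetylcholine. The 9 genes of these families described here, Adra1a, Adra1b, Adra1d, Adra2a, Adra2b, Adra2c, Adrb1, Chrm2 and Chrm3, were measured in 2 vessels of E18.5 mouse embryos, the ductus arteriosus (DA) and the ascending aorta. They were found by matching the Ensembl identifiers of the deposited table to these symbols, and they are 9 of its 54752 genes, of which 7 passed the filter on low counts and were among the 16463 genes tested. Low-input RNA-Seq libraries were made from 7 control DA, 5 Prdm6-deficient DA, 6 control aorta and 5 Prdm6-deficient aorta samples. The question behind the groups is how transcription in the DA, the fetal vessel that constricts at birth, depends on Prdm6, a PR domain protein selective for smooth muscle, and whether the aorta responds alike. All Prdm6-deficient embryos carried Wnt1Cre;PRDM6f/f, all embryos were C57/Black6, and no treatment is labelled. Controls carried PRDM6wt/f without Cre, except that control DA replicate 3 came from a PRDM6wt/wt embryo and that 1 Wnt1Cre;PRDM6wt/wt embryo gave both control DA replicate 2 and control aorta replicate 3. The Wnt1 driver deletes Prdm6 in neural crest cells, so the other cells of each vessel kept the gene. Prdm6-deficient DA replicates 1 and 2 were pools of 2 embryos each, and replicate 4 of that group was not analysed here. Both vessels came from 6 control embryos and, in 3 sets, from Prdm6-deficient embryos: DA replicate 5 with aorta replicate 3, DA replicate 7 with aorta replicate 5, and the pooled DA replicate 2 with aorta replicates 1 and 2.

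Noradrenaline released by sympathetic nerves constricts arteries mainly through alpha-1 receptors, which couple to Gq, phospholipase C and calcium release. Alpha-2 receptors couple to Gi and lower cyclic AMP, whereas the beta-1 receptor couples to Gs and raises it. Of the muscarinic receptors, the one encoded by Chrm2 couples to Gi and slows the heart, and the one encoded by Chrm3 couples to Gq and is known in endothelium for the release of nitric oxide.

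Chrm2 and Adrb1 are the members whose counts separated the genotypes in at least 1 vessel, and their promoter sequences are shown for that reason. The 250 bases before each RefSeq start are given 5′ to 3′ on the plus strand, the coding strand of both genes, from assembly GRCm38.p6. The Chrm2 stretch is chr6:36387834-36388083 and the Adrb1 stretch is chr19:56721867-56722116, and neither holds a base of an annotated exon of its gene. Capitals mark matches to the 2 motifs that were found.
Chrm2: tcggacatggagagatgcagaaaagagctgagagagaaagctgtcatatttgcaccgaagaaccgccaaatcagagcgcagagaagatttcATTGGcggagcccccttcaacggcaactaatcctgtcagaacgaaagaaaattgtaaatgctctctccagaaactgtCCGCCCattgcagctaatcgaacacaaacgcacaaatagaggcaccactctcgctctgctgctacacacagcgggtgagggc
Adrb1: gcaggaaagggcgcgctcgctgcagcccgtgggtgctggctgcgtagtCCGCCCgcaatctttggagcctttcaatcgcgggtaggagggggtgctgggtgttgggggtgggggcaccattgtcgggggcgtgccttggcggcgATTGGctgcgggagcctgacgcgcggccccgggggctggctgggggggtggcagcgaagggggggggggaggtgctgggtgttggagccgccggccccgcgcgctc

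Each stretch held 1 CCAAT box (CCAAT) and 1 GC box (GGGCGG), all on the minus strand and with no overlap between matches. A CCAAT box is present in 33.85% and a GC box in 32.742% of the 32851 mouse promoter stretches of this length. In the Chrm2 stretch the CCAAT box lies 159 to 155 bases before the start and the GC box 82 to 77 bases before it. In the Adrb1 stretch the order is the other way round, with the GC box 202 to 197 and the CCAAT box 106 to 102 bases before the start. These distances are from the RefSeq start. For Adrb1 the window ends at 56722116, short of the GENCODE M21 gene start at 56722199. For Chrm2 it ends at 36388083, next to the GENCODE M21 gene start at 36388084. Both strands were also searched for the CArG box (1.467% of all promoters), CATTCC of TEAD factors (12.642%), TGANTCA of AP-1 (6.749%), the cyclic AMP response element TGACGTCA (1.546%) and the TATA box TATAAA (12.368%), and none of these letters is in either window. The Adrb1 stretch had a GC content of 74.0%, against 50.0% in the Chrm2 stretch.

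Total counts ranged from 15163974 to 22610547 per library, and 3 counts, the smallest number taken here as detected, stood for 0.133 to 0.198 CPM, the unit of all levels here, which is the count relative to the TMM-scaled library size. These limits cover counting error only. Prdm6 itself was lower in both Prdm6-deficient vessels with no overlap between groups, with a log2 fold change of -0.57 ± 0.11 (SE) in the DA (edgeR adjusted p = 5.5e-04) and of -0.69 ± 0.11 in the aorta (adjusted p = 1.7e-04). It stayed at 72.7 ± 8.50 CPM (SD) in Prdm6-deficient DA, against 107.8 ± 16.3 in control DA. The source of these remaining Prdm6 counts was not tested. All 8 smooth muscle markers were detected in every group, with a summed level of 8653 to 24643 CPM. The 10 cardiomyocyte markers summed to 1526 CPM in control DA replicate 1 and 624.8 CPM in Prdm6-deficient DA replicate 7, against 42.0 to 292 CPM in the other DA libraries and 26.8 to 229 CPM in the aorta libraries. Control DA replicate 7 stood apart in Schwann cell markers, which summed to 174 CPM there and to 20.5 to 40.7 CPM in the other control DA libraries.

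Adra1d made up nearly all of the receptor mRNA, and the other members were low. With CPM divided by exon length, Adra1d held 89.99% ± 4.55 (SD, n = 7) of the summed level of the 9 genes in control DA and 93.3% ± 2.35 (n = 5) in Prdm6-deficient DA. Its share was 94.1% ± 1.57 (n = 6) in control aorta and 92.9% ± 2.003 (n = 5) in Prdm6-deficient aorta. The summed level of the 9 genes was 26.4 ± 4.26 CPM per kb in control DA, 28.5 ± 5.11 in Prdm6-deficient DA, 36.3 ± 10.2 in control aorta and 47.4 ± 4.86 in Prdm6-deficient aorta. Chrm2 came next in both control vessels, at 5.32% ± 2.62 of the sum in the DA and 3.61% ± 0.776 in the aorta. Adrb1 held 1.71% ± 1.25 in control DA and 1.10% ± 0.499 in control aorta, and Adra2c 1.44% ± 0.957 and 0.137% ± 0.172. In the Prdm6-deficient vessels Adrb1 came next instead, at 3.55% ± 1.95 in the DA and 4.81% ± 1.79 in the aorta. Chrm2 was there at 1.003% ± 1.33 and 0.503% ± 0.287, and Adra2a, at 0.9996% ± 1.05 and 0.966% ± 0.517, was not apart from it in either vessel. In control DA the ranges of Adrb1 and Adra2c overlapped, so these neighbours in the order were not apart beyond their spread, and the same holds for Chrm2 and Adrb1 in both DA groups. In both aorta groups the ranges of the Chrm2 and Adrb1 shares were apart, at 2.21% to 4.30% and 0.461% to 1.83% in control aorta and at 0.173% to 0.873% and 2.75% to 7.38% in Prdm6-deficient aorta. Adra1a, Adra1b, Adra2a, Adra2b and Chrm3 each averaged at most 0.9996% of the sum in every group.

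**Figure D1:**
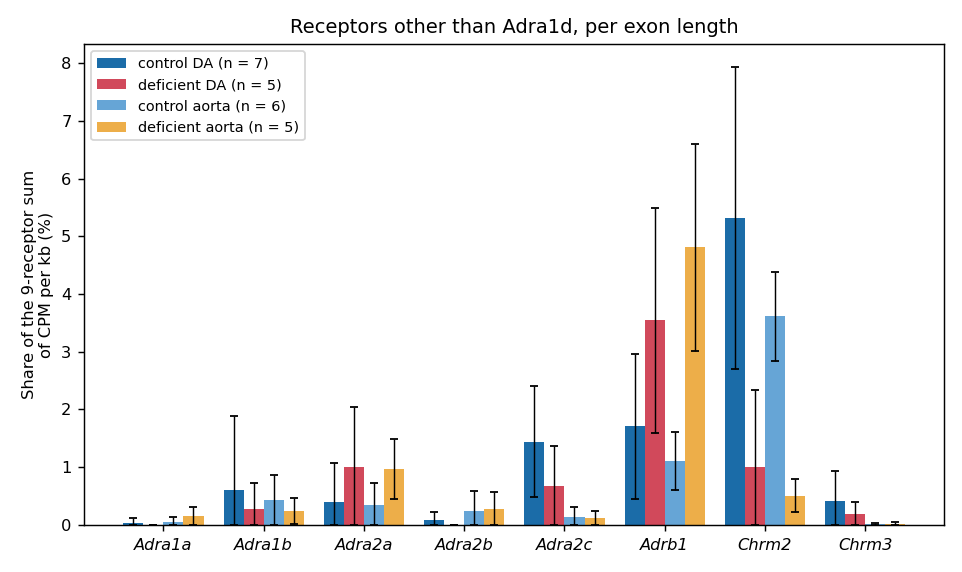
Mean share of the summed CPM per kb of exon of the 9 receptor genes, in percent, for the 8 members other than Adra1d (bars, by group; error bars are SDs between libraries, with the lower arm stopped at 0). Chrm2 is the tallest bar of the control groups, and Adrb1 of the Prdm6-deficient groups.

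A gene was called where the adjusted p of edgeR's quasi-likelihood test was below 0.01 and the log2 fold change was beyond 0.5 either way. In the DA, Prdm6-deficient against control, 1 of the 7 tested members was called, and it was lower (Chrm2). Over all genes tested 5.43% were called in this comparison, 2.61% higher and 2.82% lower. In the aorta 1 of 7 was called, again Chrm2 and again lower, where 2.45% of all genes were called, 1.63% higher and 0.826% lower. Between control DA and control aorta 0 of 7 members were called (5.36% of all genes), with 3 at an unadjusted p under 0.05 (21.6% of all genes) and 1 called by DESeq2. Between the Prdm6-deficient vessels 0 of 7 were called (0.267% of all genes), with 1 at an unadjusted p under 0.05 (1654 of the 16463 genes tested) and 1 called by DESeq2. For the difference between the genotype effects of the 2 vessels 0 of 7 were called (2.58% of all genes), with 0 at an unadjusted p under 0.05 (15.9% of all genes) and 0 called by DESeq2. The median log2 fold change of the 7 members was -0.98 in the DA and 0.36 in the aorta, and that of all tested genes lay within 0.02 of 0 in both. In the DA 3 members were higher and 4 lower. The DA median is the value of Adra1b, Adra2c or Chrm3, whose counts reached 0 in several libraries, so it does not describe the family. Adra1d averaged 45.3 CPM in control DA and 50.7 in Prdm6-deficient DA, and the 9 genes summed to 26.4 and 28.5 CPM per kb. The DA genotype comparison and the comparison of control vessels share the control DA libraries, and the aorta comparisons share the control aorta libraries in the same way.

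**Figure D2:**
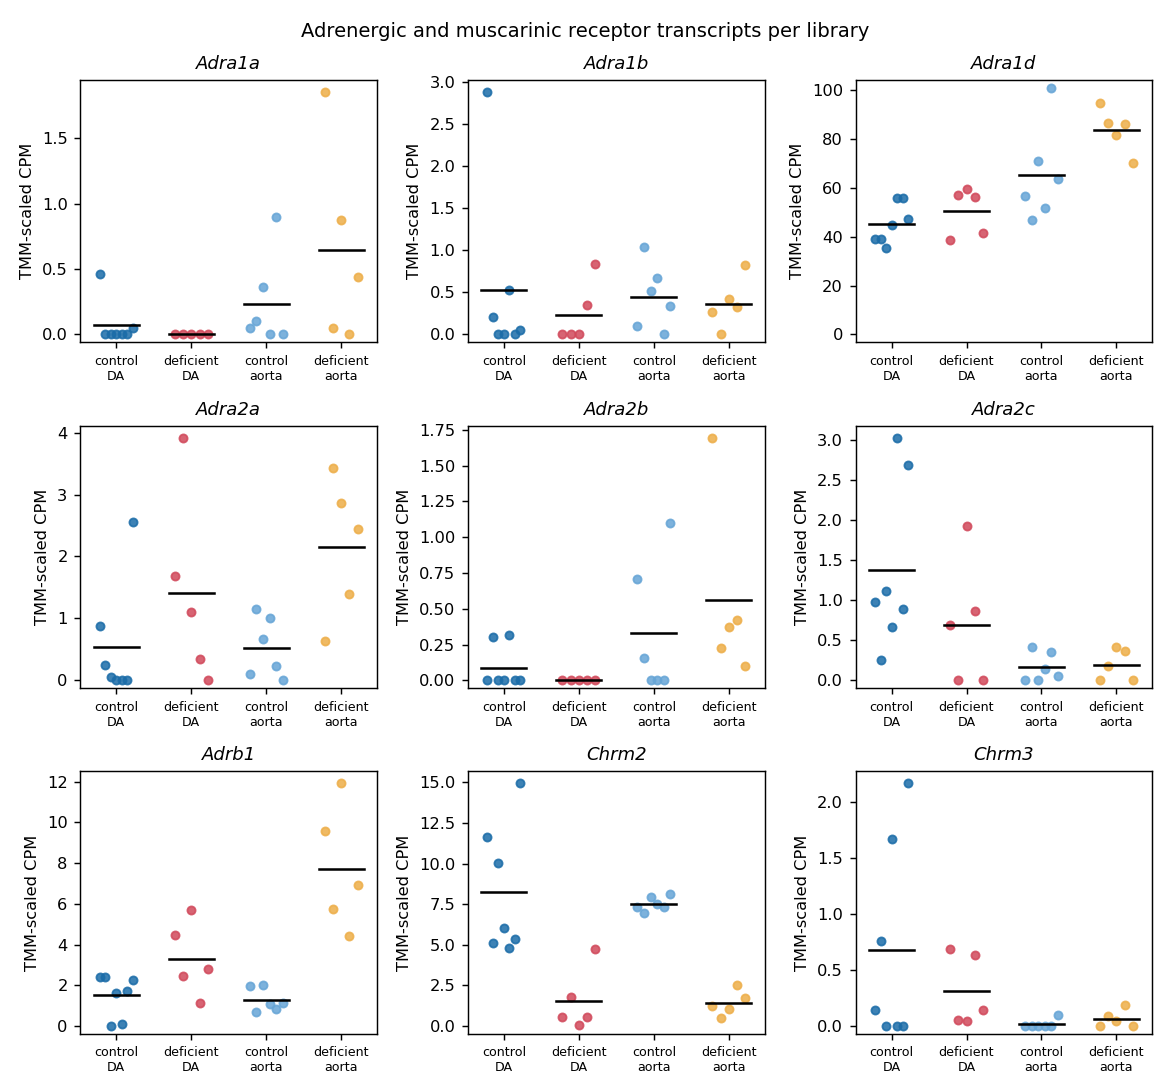
TMM-scaled CPM of each of the 9 receptor genes (y axis, a scale per gene) in each library (points) by group, with the group mean as a line. Chrm2 is lower in the Prdm6-deficient groups of both vessels, Adrb1 is higher in Prdm6-deficient aorta, and Adra1d is the only member above 15 CPM.

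Chrm2 (ENSMUSG00000045613.9, chr6:36388084-36528414 on mm10, plus strand) fell in both vessels of Prdm6-deficient embryos. In control DA its level in replicates 1 to 7 was 11.7, 5.11, 10.01, 6.02, 4.79, 5.35 and 14.9 CPM. In Prdm6-deficient DA it was 0.561, 1.82, 0.0916, 0.575 and 4.76 CPM in replicates 1, 2, 5, 6 and 7. The highest Prdm6-deficient library, replicate 7, lay just under the lowest control, so the groups did not overlap (5.66% of all genes tested did not overlap in this comparison).

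In control aorta Chrm2 was narrowly spread, at 7.32, 6.97, 7.95, 7.52, 7.33 and 8.15 CPM in replicates 1 to 6. In Prdm6-deficient aorta it was 1.22, 0.504, 1.06, 2.51 and 1.76 CPM in replicates 1 to 5. These groups were far apart, with no library between 2.51 and 6.97 CPM (6.95% of all genes did not overlap in the aorta).

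The log2 fold change of Chrm2 was -2.39 ± 0.56 (SE) in the DA, with a 95% interval of -3.55 to -1.24 and an adjusted p of 0.0044 by edgeR. In the aorta it was -2.41 ± 0.57, with an interval of -3.59 to -1.23 and an adjusted p of 0.0097. These are a 5.26-fold and a 5.33-fold lower level. The difference between both effects was 0.02 ± 0.73 on the log2 scale, with an interval of -1.49 to 1.52 (adjusted p = 0.996). Control DA and control aorta differed by 0.13 ± 0.48 (interval -0.86 to 1.13, adjusted p = 0.93), and the Prdm6-deficient vessels by 0.15 ± 0.58 (interval -1.03 to 1.34, adjusted p = 0.97). Of the 6 control embryos that gave both vessels, Chrm2 was lower in the DA in 4 and higher in 2. Counts of bulk tissue do not tell fewer cells with a transcript from less transcript per cell, here and in all results that follow.

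The Chrm2 decrease kept its direction in every fit tried, but its call in each vessel depended on the fit. The animal numbers in the labels fall into a lower and a higher run, called the first and the second here, and what separates them is not labelled. Within the first run of animal numbers the DA value was -4.20 ± 0.92 (3 Prdm6-deficient and 2 control samples, edgeR adjusted p = 0.047), and within the second run it was -1.38 ± 0.54 (2 and 5 samples, adjusted p = 0.17), neither past the threshold. In the aorta the second run gave -2.68 ± 0.50 (3 and 5 samples, adjusted p = 0.0041), and the first run held a single control. The aorta call was lost with the run as a term (adjusted p = 0.020), without the pooled samples (0.0102), without the controls with Cre (0.020) and in 16 of the 23 fits that left out 1 library (up to 0.035). With the DA groups alone in the fit the DA adjusted p was 0.037, and without the pooled samples it was 0.047. Prdm6-deficient DA replicate 7 moved the DA value most, to -3.45 when it was left out.

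Chrm2 is abundant in heart muscle, and the 2 DA libraries with the highest cardiomyocyte marker sums were also among the higher Chrm2 libraries of their groups. Without control DA replicate 1, Chrm2 averaged 7.70 ± 4.03 CPM (SD, n = 6) in control DA, and without Prdm6-deficient DA replicate 7 it averaged 0.761 ± 0.739 CPM (n = 4) in Prdm6-deficient DA. With both left out the log2 fold change was -3.34 ± 0.56 (edgeR adjusted p = 1.9e-04), larger than with them. Prdm6-deficient DA replicate 7 was the highest Chrm2 library of its group, at 4.76 CPM. Leaving it out thus lowers the mean of that group whatever the source of its Chrm2. The part of heart muscle cells in the Chrm2 result was not tested. Of the 10 cardiomyocyte markers 0 were called in any of the comparisons of genotype or vessel, with 3 at an unadjusted p under 0.05 between genotypes in the DA (23.7% of all genes) and 0 in the aorta (14.0% of all genes), and none was at 0 in every library of a group. The control aorta libraries held 57.8 to 229 CPM of these markers with 6.97 to 8.15 CPM of Chrm2. The Prdm6-deficient aorta libraries held 26.8 to 150 CPM of the markers with 0.504 to 2.51 CPM of Chrm2. Smooth muscle markers moved with Chrm2 in the DA, where all 8 were lower in Prdm6-deficient samples, 7 of them called (2.82% of all genes were called lower). They summed to 9979 to 12147 CPM there, against 13963 to 24643 in control DA, and their part in the result was not tested. In the aorta 0 of 8 were called lower (0.826% of all genes) and 1 was called higher (1.63%), with sums of 9586 to 11301 CPM against 8653 to 12262 CPM.

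**Figure D3:**
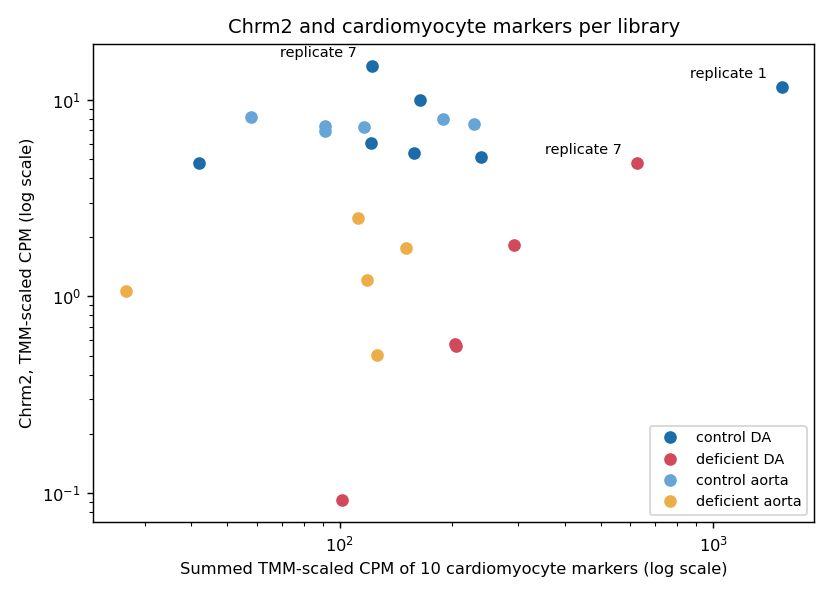
Chrm2 level (y axis, TMM-scaled CPM, log scale) against the summed level of 10 cardiomyocyte markers (x axis, TMM-scaled CPM, log scale) in each of the 23 libraries (points, coloured by group). Control DA replicate 1 and Prdm6-deficient DA replicate 7 lie farthest right, and in the range the aorta libraries span the control and Prdm6-deficient aorta points are apart in Chrm2.

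Among the 12976 tested genes whose average log2 CPM was 1 or more, the pattern of Chrm2 over the 23 libraries was most like that of Dusp10, a dual-specificity phosphatase that acts on stress-activated kinases, Wnt9a, a Wnt ligand, and Islr2, a cell surface protein with leucine-rich repeats. The root-mean-square difference of standardized log2 CPM was 0.468 for Dusp10, 0.540 for Wnt9a and 0.563 for Islr2, with a median of 1.39 over all candidates. Being picked for likeness, these genes are given as a description. Dusp10 averaged 35.1 ± 5.24 CPM in control DA and 15.3 ± 4.01 in Prdm6-deficient DA, and 36.9 ± 6.25 and 17.5 ± 3.30 in the aorta.

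Chrm3 (ENSMUSG00000046159.16, chr13:9875486-10360847, minus strand) was at the edge of detection. It had 3, 15, 0, 25, 0, 0 and 45 counts in control DA replicates 1 to 7 and 0 to 2 counts in the 6 control aorta libraries. In the Prdm6-deficient vessels it had 1 to 11 counts in the DA libraries and 0 to 4 in the aorta libraries. In control DA 3 of 7 libraries were above 3 counts, and in control aorta 0 of 6 were. Its mean in control DA, 0.677 CPM, was at least 4.59-fold higher than 3 counts in each control aorta library would be, with an edgeR adjusted p of 0.030, which misses the threshold. It was higher in the DA in 4 of the 6 control embryos that gave both vessels, lower in 1 and at 0 in both vessels of the remaining one. The adjusted p was 0.67 between genotypes in the DA and 0.77 in the aorta.

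Adrb1 (ENSMUSG00000035283.4, chr19:56722199-56733113, plus strand) was higher in every Prdm6-deficient aorta library than in any control aorta library. Its level was 1.97, 0.676, 2.002, 1.11, 0.854 and 1.15 CPM in control aorta replicates 1 to 6. In Prdm6-deficient aorta it was 9.59, 5.73, 11.9, 4.42 and 6.93 CPM in replicates 1 to 5. The lowest Prdm6-deficient library was thus over the highest control library by more than the whole control range. Chrm2 was the other member without overlap in this comparison, in which 6.95% of all genes tested did not overlap. The log2 fold change was 2.57 ± 0.65 (interval 1.23 to 3.91), a 5.94-fold higher level, but its adjusted p of 0.016 by edgeR misses the threshold. DESeq2 gave 2.57 ± 0.58 (adjusted p = 3.7e-04), and a fit of the 2 aorta groups alone gave 2.57 ± 0.34 (adjusted p = 6.9e-05), both past it. Leaving out control DA replicate 3 or control DA replicate 5, the 2 control DA libraries with 0 to 2 counts of Adrb1, also brought the aorta value past the threshold (adjusted p = 0.0018 and 0.0067). Within the second run of animal numbers it was 2.68 ± 0.62 (adjusted p = 0.023). Adrb1 stayed uncalled in the aorta in 21 of the 23 fits that left out 1 library (edgeR adjusted p up to 0.057). It also stayed uncalled in 9 of the 11 other alternatives.

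In the DA the Adrb1 values of the genotypes overlapped. Control DA had 2.42, 2.43, 0, 1.60, 0.106, 1.73 and 2.26 CPM in replicates 1 to 7, and Prdm6-deficient DA 4.49, 2.44, 5.68, 1.15 and 2.80 CPM in replicates 1, 2, 5, 6 and 7. Of the 5 Prdm6-deficient libraries 4 lay above every control library. The log2 fold change was 1.13 ± 0.61 (interval -0.12 to 2.38, edgeR adjusted p = 0.27), at 1.62 ± 1.27 within the first and 0.68 ± 0.70 within the second run of animal numbers. The genotype effect in the DA minus that in the aorta was -1.44 ± 0.89 (interval -3.27 to 0.39, adjusted p = 0.49), so the vessels were not shown to differ in it. The control vessels differed by 0.22 ± 0.59 (interval -0.995 to 1.44, adjusted p = 0.90), and Adrb1 was higher in the DA in 5 of the 6 control embryos that gave both vessels. The Prdm6-deficient DA lay 1.22 ± 0.66 below the Prdm6-deficient aorta on the log2 scale (interval of the DA minus the aorta -2.58 to 0.14, adjusted p = 0.58). In the 3 sets from the same Prdm6-deficient embryos Adrb1 was at 2.44 CPM in the DA against a mean of 7.66 in the aortas, at 5.68 against 11.9 and at 2.80 against 6.93, lower in the DA each time, and with the embryo as a block in limma the difference was -1.28 ± 0.51 (adjusted p = 0.30). Adrb3, which encodes a beta receptor, was tested and not called in any comparison, at 0.796 ± 0.807 CPM in control DA. In the aorta Adrb3 was at 0.775 ± 0.413 CPM in controls (n = 6) and 1.18 ± 0.874 in Prdm6-deficient samples (n = 5). Endothelial markers were higher in Prdm6-deficient aorta as well, with 3 of 7 called higher (1.63% of all genes). They summed to 920 to 1162 CPM against 582 to 932 in control aorta, and none of them was at 0. Autonomic neuron markers summed to 47.7 to 92.4 CPM in Prdm6-deficient aorta against 22.7 to 39.7 in control aorta, with 1 of the 7 tested markers called higher. That marker, Elavl4, made up most of the difference, at 4.66 ± 1.22 CPM in control and 37.6 ± 14.9 in Prdm6-deficient aorta, while Stmn2 was at 15.3 ± 2.45 and 16.4 ± 4.65 CPM, with Phox2a at 0 in every Prdm6-deficient aorta library and Dbh at 0 in every control aorta library. The part of these cells in the Adrb1 result was not tested.

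**Figure D4:**
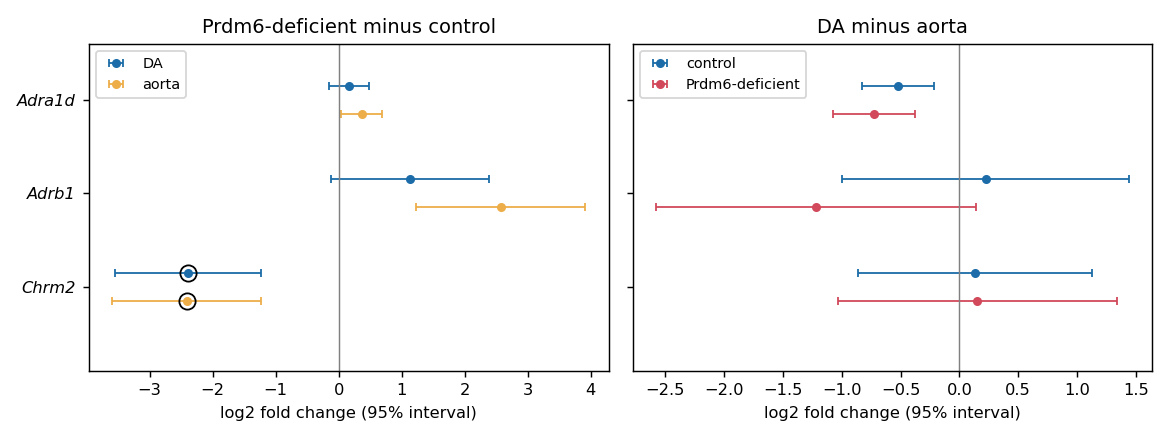
Log2 fold changes with 95% intervals (x axis) of the 3 members with more than a few counts in most libraries, for Prdm6-deficient minus control in each vessel (left) and DA minus aorta in each genotype (right). Black circles mark calls; the Chrm2 intervals lie below 0 in both vessels, and the Adra1d intervals lie below 0 in both comparisons of the vessels without a call.

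Adra1d (ENSMUSG00000027335.9, chr2:131545850-131562283, minus strand) was the only abundant member, and it was not called in any comparison of the fit over all groups. In control DA it was at 39.0, 39.2, 35.3, 44.6, 55.8, 55.8 and 47.1 CPM in replicates 1 to 7. In control aorta it was at 56.5, 46.9, 71.0, 51.6, 101 and 63.7 CPM in replicates 1 to 6. These ranges overlapped, and the DA was lower in 5 of the 6 control embryos that gave both vessels. The DA minus aorta difference was -0.52 ± 0.15 on the log2 scale (interval -0.83 to -0.22), with an adjusted p of 0.019 by edgeR, short of the threshold. DESeq2 called it (-0.52 ± 0.15, adjusted p = 0.0071), as did edgeR without control aorta replicate 2 (-0.60, adjusted p = 0.0073), and within the second run of animal numbers it was -0.40 ± 0.18 (adjusted p = 0.21).

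In Prdm6-deficient DA Adra1d was at 38.6, 57.1, 59.6, 56.3 and 41.6 CPM in replicates 1, 2, 5, 6 and 7, and in Prdm6-deficient aorta at 94.5, 86.6, 81.6, 85.8 and 70.0 CPM in replicates 1 to 5. Every Prdm6-deficient DA library was below every Prdm6-deficient aorta library (3.52% of all genes did not overlap between these vessels), also within each of the 3 sets from the same embryos. The log2 fold change was -0.72 ± 0.17 (interval -1.07 to -0.38) with an edgeR adjusted p of 0.033. DESeq2 (adjusted p = 0.0036) and a fit of these groups alone (adjusted p = 0.0075) called it. It was -0.70 ± 0.19 within the first and -0.77 ± 0.26 within the second run of animal numbers.

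Between genotypes, the Adra1d difference was 0.16 ± 0.16 in the DA (interval -0.16 to 0.49, edgeR adjusted p = 0.60) and 0.36 ± 0.16 in the aorta (interval 0.03 to 0.69, adjusted p = 0.28). Within the runs of animal numbers it was 0.47 ± 0.19 and 0.02 ± 0.23 in the DA, and 0.39 ± 0.20 within the second run in the aorta. Both intervals leave out a doubling or a halving. The difference between the vessels' effects was -0.20 ± 0.22 (interval -0.66 to 0.26, adjusted p = 0.77). Smooth muscle markers went the other way from Adra1d between the control vessels, with all 8 higher in the DA, 7 of them called (3.16% of all genes were called higher). They summed to 13963 to 24643 CPM in control DA, against 8653 to 12262 in control aorta.

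Adra1a (ENSMUSG00000045875.13, chr14:66635251-66771168, plus strand) and Adra1b (ENSMUSG00000050541.14, chr11:43774606-43901210, minus strand), the other alpha-1 receptors, were barely detected. Adra1a had 10 counts in control DA replicate 1, 1 count in replicate 7 and 0 in the other 5 control DA libraries and in all 5 Prdm6-deficient DA libraries. In the aorta it reached 20 counts in controls and 35 in Prdm6-deficient samples, with 2 of 6 and 3 of 5 libraries above 3 counts. It did not pass the filter, and a fit of 26533 genes without the filter gave edgeR adjusted p of 0.19 to 0.80 over the 5 comparisons. Adra1b had 62 counts in control DA replicate 1, the library with the most cardiomyocyte marker RNA, 0 to 10 in the other control DA libraries and 0 to 20 in all other groups. It was tested, with adjusted p of 0.70 between genotypes in the DA and 0.99 in the aorta.

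The alpha-2 receptors were low too. Adra2a (ENSMUSG00000033717.5, chr19:54044151-54048982, plus strand) averaged 0.535 ± 0.945 CPM in control DA and 1.41 ± 1.55 in Prdm6-deficient DA. In the aorta it averaged 0.525 ± 0.487 CPM in controls and 2.15 ± 1.13 in Prdm6-deficient samples, with overlapping ranges (edgeR adjusted p = 0.53 in the DA and 0.54 in the aorta). Its highest control DA value, 2.55 CPM, was in replicate 7, the library with the highest Schwann cell marker sum among the controls, and the part of these cells in it was not tested.

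Adra2c (ENSMUSG00000045318.6, chr5:35278319-35281763, plus strand) was detected in every control DA library, at 0.975, 0.253, 1.11, 0.669, 3.03, 0.891 and 2.70 CPM in replicates 1 to 7. In control aorta it was at 0, 0.416, 0, 0.145, 0.360 and 0.0479 CPM in replicates 1 to 6, from 0 to 8 counts. It was higher in the DA in 6 of the 6 control embryos that gave both vessels, though control DA replicate 2 lay within the aorta's range. The edgeR adjusted p was 0.10, which misses the threshold. Prdm6-deficient DA had 0.686, 0, 1.92, 0.862 and 0 CPM, a range that reached from below the control DA values into them (adjusted p = 0.67), and Prdm6-deficient aorta had 0 to 0.416 CPM.

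Adra2b (ENSMUSG00000058620.5, chr2:127363208-127367221, plus strand) had 0 counts in all 5 Prdm6-deficient DA libraries and 6 counts in each of 2 control DA libraries, with 0 in the other 5. In Prdm6-deficient aorta it had 32, 5, 8, 9 and 2 counts in replicates 1 to 5, and in control aorta 14, 3, 0, 0, 0 and 23. It did not pass the filter. Without the filter, edgeR's adjusted p over the 5 comparisons was 0.17 to 0.96, with the Prdm6-deficient vessels at 0.20. Chrm1, Chrm4 and Chrm5, the other muscarinic receptors, did not pass the filter either, with at most 14, 10 and 0 counts in any library.

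Downstream of the receptors, 37 of 39 listed G protein and effector genes were tested. In Prdm6-deficient DA 2 rose and 3 fell (2.61% of all genes were called higher and 2.82% lower). In the aorta 1 rose and 1 fell (1.63% of all genes were called higher and 0.826% lower). Between the control vessels 3 were higher and 3 lower in the DA (3.16% of all genes were called higher and 2.19% lower in that comparison). Gna14, an alpha subunit of the Gq class, was at 153 ± 48.5 CPM in control DA and 16.0 ± 6.73 in Prdm6-deficient DA (log2 fold change -3.26 ± 0.32, edgeR adjusted p = 5.1e-08). It was at 25.7 ± 12.9 CPM in control aorta and 11.9 ± 2.94 in Prdm6-deficient aorta, and its effect differed between the vessels by -2.14 ± 0.42 (adjusted p = 0.0017). Adcy8, a calcium-stimulated adenylyl cyclase, went the other way, from 2.76 ± 2.67 CPM in control DA to 14.6 ± 6.32 in Prdm6-deficient DA (2.42 ± 0.44, adjusted p = 3.2e-04). This call was lost with only the DA groups in the fit and within the second run of animal numbers (edgeR adjusted p up to 0.080). In the aorta Adcy8 was at 13.7 ± 3.83 CPM in controls and 25.9 ± 2.42 in Prdm6-deficient samples, without a call. Plcb1, a phospholipase C of the Gq pathway, rose by 0.83 and Prkca, a protein kinase C, fell by 0.69 in the DA on the log2 scale. In the aorta Adcy7, another adenylyl cyclase, fell by 1.07 and Itpr1, a calcium release channel, rose by 0.51. With the embryo as a block in limma the Prkca value was -0.68 ± 0.18 (adjusted p = 0.011) and the Adcy7 value -1.08 ± 0.28 (adjusted p = 0.017), neither past the threshold. Of the 35 alternatives in the DA, 8 ended the Plcb1 call and 11 the Prkca call, and of the 34 in the aorta, 9 ended the Itpr1 call. Among the uncalled genes of this list were Gnas, the alpha subunit of Gs, at 1487 ± 66.7 CPM in control DA and 1671 ± 90.8 in Prdm6-deficient DA, and Prkar1a, a regulatory subunit of protein kinase A.

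Of 21 tested genes that end or shape receptor signals, 2 rose and 5 fell in Prdm6-deficient DA (5.43% of all genes were called). In Prdm6-deficient aorta 4 rose and 1 fell (2.45% of all genes). Between the control vessels 7 were higher and 2 lower in the DA (5.36% of all genes). For 6 of the 21 genes the genotype effect itself differed between the vessels (2.58% of all genes). Akap5, a scaffold that holds protein kinase A near beta receptors, was at 87.2 ± 35.7 CPM in control DA and 5.70 ± 2.61 in Prdm6-deficient DA (log2 fold change -3.94 ± 0.37, edgeR adjusted p = 2.2e-08). In the aorta it was at 7.39 ± 3.63 CPM in controls and 9.37 ± 2.21 in Prdm6-deficient samples, and the Prdm6-deficient vessels differed by -0.72 ± 0.36 (adjusted p = 0.51). The cyclic AMP phosphodiesterase Pde4d fell by 1.68 in the DA (adjusted p = 0.0021), from 20.5 ± 4.29 to 6.37 ± 3.12 CPM. Pde4b, of the same family, fell by 0.99 in the DA and rose by 1.002 in the aorta on the log2 scale (adjusted p = 0.0014 and 0.0027). Rgs2, which shortens Gq signals, fell by 1.16 in the DA, from 27.8 ± 6.37 to 12.4 ± 2.88 CPM. Rgs5, a regulator of the same family that is abundant in mural cells, was at 7853 ± 2023 CPM in control DA and 1623 ± 522 in control aorta, and rose to 5290 ± 373 CPM in Prdm6-deficient aorta (1.70 ± 0.20, adjusted p = 1.4e-06). Rgs7 fell by 1.19 in the aorta. The genes of both lists that fell in the DA moved with the smooth muscle markers given above, whose part in these results was not tested. Pde3a and the receptor kinase Grk6 were not called in any comparison.

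**Figure D5:**
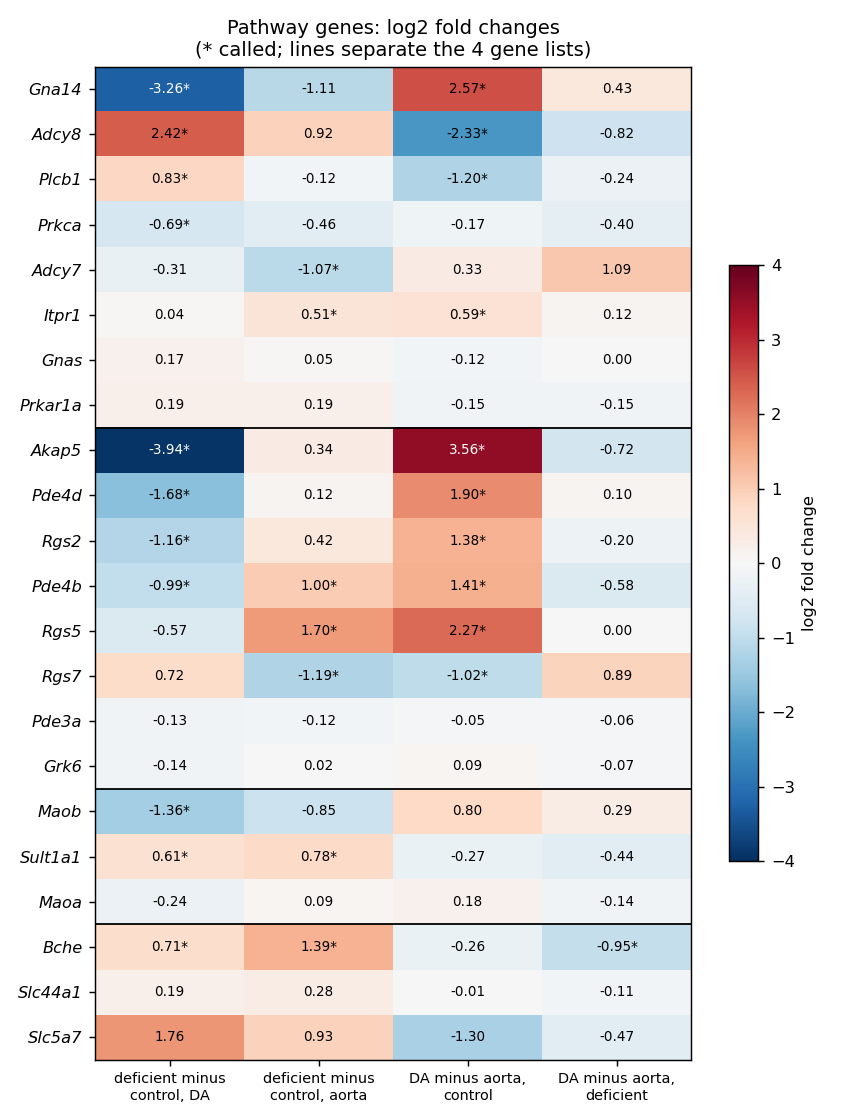
Log2 fold changes (colour and printed value) of 22 named genes of 4 lists (rows) in 4 comparisons (columns), with * for a call. Akap5 and Gna14 have the most negative values in the DA, and Rgs5 is called in the aorta and between the control vessels.

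Of 14 genes for making, storing and clearing catecholamines 6 were tested, of which 2 were called in the DA (5.43% of all genes) and 1 in the aorta (2.45%). In the DA Sult1a1, a sulfotransferase, rose by 0.61 and Maob, a monoamine oxidase, fell by 1.36 on the log2 scale, but the Sult1a1 call was lost in 21 and the Maob call in 8 of 35 alternatives (edgeR adjusted p up to 0.35 and 0.29). Sult1a1 also rose in the aorta, by 0.78, while Maoa, another monoamine oxidase, was not called. Th, the rate-limiting enzyme of catecholamine synthesis, had at most 7 counts in any DA library and 48 in any aorta library. Of 8 genes for acetylcholine 6 were tested. Of these 1, Bche, which encodes a cholinesterase, was called in each vessel (5.43% of all genes in the DA and 2.45% in the aorta). It was at 43.8 ± 7.23 CPM in control DA and 71.4 ± 10.2 in Prdm6-deficient DA (log2 fold change 0.71 ± 0.15, edgeR adjusted p = 0.0013), and at 52.6 ± 11.1 and 137 ± 29.2 CPM in the aorta (1.39 ± 0.15, adjusted p = 5.5e-07). The choline transporters Slc44a1 and Slc5a7 were not called, and Chat, which makes acetylcholine, had at most 1 count in any library.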

How the data were processed

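RNA from microdissected vessels was sequenced as 151 bp read pairs. The authors filtered reads with the FASTX-Toolkit and tagdust, aligned them to mm10 with STAR and estimated expression per gene with RSEM and a GENCODE annotation; the versions of STAR and RSEM are not given in the sources used here. The table deposited by the authors holds expected counts from RSEM that were not normalized. Reads that match more than 1 gene are shared out by RSEM, and no use of strand is stated.

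Groups and replicates came from the sample labels, and column names were matched to them. The 9 receptor genes and all gene lists were chosen with earlier results of these data known, so no test here is independent of them. Symbols and positions came from GENCODE M21 (mm10), which held 54723 of the 54752 identifiers without their version. Promoter stretches came from a RefSeq table of GRCm38.p6, in which 7 of the 9 members matched (not Adra1a and Adra1d).

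Expected counts were rounded and tested with edgeR 4.0.16 in R 4.3.3: filterByExpr, TMM scaling, 1 mean for each vessel and genotype over 23 libraries, the quasi-likelihood test and Benjamini-Hochberg adjustment over 16463 genes. Levels are TMM-scaled CPM, with SDs between libraries, and intervals of fold changes are 95% intervals of the fit. Levels of different receptors were compared per kb of merged exon length. Named besides the receptors are, per list, up to 4 called genes with the largest change between genotypes in the DA, up to 3 between the control vessels, up to 2 between genotypes in the aorta and up to 2 uncalled genes of the highest average log2 CPM, with 3 genes most like each called receptor in pattern; 2 of the genes so named are not reported here. On simulated data with 200 genes changed in the DA and 15978 genes tested, the procedure recovered 46% of the 2-fold and 69% of the 4-fold changes, with 0 false calls. No pair of libraries of 1 group agreed within sampling noise (chi-square per gene 15.6 to 115 over 56 pairs). The labels name the embryo, and 6 control embryos gave both vessels; deviations from the group means correlated weakly within these pairs (r = -0.02 to 0.08) and between the vessels of the 3 sets of Prdm6-deficient embryos (r = 0.0083 to 0.042). Embryos were separate animals apart from the pools. Alternatives were DESeq2 1.42.0, RLE scaling, no filter, only the groups compared, terms for replicate number and for the run of animal numbers, the animal as a block in limma 3.58.1, and fits without the pools, without the controls with Cre, within each run and without each library. A fit without the 2 DA libraries richest in cardiomyocyte markers was added after the data were seen. Plots were drawn with matplotlib 3.10.9 and tables written with pandas 2.3.3 under Python 3.11.15.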

Additional observations from a re-analysis of the deposited data

Results flagged for a closer look

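In 5 of 34 combinations of a receptor and a group a single library stood apart from the others of its group; for normally spread values chance gives about 1 in 20, a rate that was not tested for counts near 0. Control DA replicate 1 had the highest Adra1a (0.464 CPM, from 10 counts) and the highest Adra1b (2.88 CPM) of its group, and it was also the library with the highest cardiomyocyte marker sum, 1526 CPM. Control DA replicate 7 stood apart in Adra2a at 2.55 CPM, and had a Schwann cell marker sum of 174 CPM. Prdm6-deficient aorta replicate 1 stood apart in Adra2b at 1.70 CPM, from 32 counts. Control aorta replicate 6 stood apart in Chrm3 at 0.0959 CPM, which rests on 2 counts where the other 5 libraries had 0. The part of the marked cell types in these values was not tested.

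The effect of genotype differed between the vessels for 6 named genes of signalling below the receptors, by edgeR's test of the difference itself. The effect in the DA minus that in the aorta, on the log2 scale, was -4.28 ± 0.48 for Akap5 (adjusted p = 2.4e-06), -2.27 ± 0.28 for Rgs5 (7.9e-06), -2.14 ± 0.42 for Gna14 (0.0017), -1.99 ± 0.29 for Pde4b (6.3e-05), -1.58 ± 0.24 for Rgs2 (1.2e-04) and 1.91 ± 0.31 for Rgs7 (1.9e-04). All 6 genes kept this direction in each of the 33 alternatives, and each stayed called except Rgs2 within the second run of animal numbers (adjusted p = 0.011). For Pde4b the single effects were both called and had opposite signs, lower in Prdm6-deficient DA and higher in Prdm6-deficient aorta. Its DA call was lost in 2 of 35 alternatives, without the pooled samples and within the first run (edgeR adjusted p up to 0.26). Its aorta call was lost in 2 of 34, within the second run and without Prdm6-deficient aorta replicate 4 (up to 0.13). Akap12 (1.34) and Adcy5 (0.67) of the same lists, which the rule for naming genes leaves out, also had a called difference, both positive. Their calls were lost in 4 and 12 of the 33 alternatives. Of the 7 receptor genes tested none had such a difference called, and of all genes tested 2.58% had.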

How the results depend on the processing

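The Chrm2 decrease kept its direction in all alternatives in both vessels, and the log2 fold change ranged from -4.20 to -1.38 in the DA and from -2.73 to -2.20 in the aorta. In the DA the number of receptors called was 0 instead of 1 with only the 2 groups compared, without the pooled samples and within either run of animal numbers, and 0 to 1 when 1 library was left out (0 without control DA replicate 7 or without Prdm6-deficient DA replicate 1, 2 or 6, at edgeR adjusted p of 0.011 to 0.017). In the aorta it was 2 instead of 1 under DESeq2 and with only the 2 groups compared, 0 with the run of animal numbers as a term, without the pooled samples and without the controls with Cre, and 0 to 2 when 1 library was left out. Chrm2 lost its aorta call in 16 of these 23 fits (adjusted p up to 0.035), namely without any of the 6 control aorta libraries, without Prdm6-deficient aorta replicate 1, 2, 3 or 5, without control DA replicate 1, 2, 3, 4 or 7 and without Prdm6-deficient DA replicate 2. Between the control vessels the count was 1 instead of 0 under DESeq2 and 0 to 1 when 1 library was left out (1 without control aorta replicate 2), and between the Prdm6-deficient vessels 1 instead of 0 under DESeq2 and with only those groups. The signs of small, uncalled differences turned. Chrm2 in control DA minus control aorta was -0.22 with the replicate block and -0.067 with a term for the 6 animals, and -0.075 to 0.23 when 1 library was left out. Chrm2 in Prdm6-deficient DA minus aorta was -0.60 with the replicate block, -0.0051 with the run of animal numbers as a term, -0.64 with the animal block, -2.13 within the first run, -0.90 without the 2 DA libraries richest in cardiomyocyte markers, and -0.90 to 0.46 when 1 library was left out. The difference of its genotype effects was -0.38 with the replicate block, -0.19 with the run term, -0.68 with the animal block, -0.086 without the controls with Cre, -0.93 without the 2 libraries richest in cardiomyocyte markers, and -1.03 to 0.33 when 1 library was left out. Adrb1 in control DA minus control aorta was -0.62 with the animal block, while it was higher in the DA in 5 of the 6 control embryos that gave both vessels. The causes were not tested. The embryo as a block changed the call of no receptor in any comparison, while all called genes went from 44 to 70 between the Prdm6-deficient vessels; of the listed pathway genes it ended the calls of Prkca (DA), Adcy7 (aorta) and Grk3 (control vessels). Replicate numbers did not pair the samples (correlations of -0.05 to 0.13 in the DA, 1 of 5 libraries closest to its own number), and the replicate block left the call of every receptor as it was while all called genes went from 44 to 16 between the Prdm6-deficient vessels. In the first run of animal numbers the aorta held 1 control, so no aorta fit within it was made. Of 48 calls of listed pathway genes, 20 held in every alternative and 0 turned direction; the lost calls include Sult1a1 (DA), Maob (DA), Prkca (DA) and Plcb1 (DA). Depth limits Adra1a, Adra1b, Adra2a, Adra2b, Adra2c and Chrm3, whose counts reached 0 in several libraries.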

Other observations

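In the DA, melanocyte markers were lower in Prdm6-deficient samples, with 4 of 5 called and sums of 0 to 1.56 CPM against 27.7 to 218 CPM in controls. Adipocyte markers had 2 of 4 tested called lower there, with Adipoq at 0 in every Prdm6-deficient DA library. Of all genes tested 2.82% were called lower in this comparison. Leukocyte markers had 0 of 5 called in either vessel. By edgeR 0 were at an unadjusted p under 0.05 in the DA (23.7% of all genes) and 4 in the aorta (14.0% of all genes). All 5 were lower in Prdm6-deficient aorta, with sums of 35.0 to 65.7 CPM against 64.6 to 132 CPM in control aorta. Of 5 fibroblast markers 1 was called in each vessel, Lum, higher in Prdm6-deficient samples, and this gene is named after its values were seen. Of all genes 2.61% were called higher in the DA and 1.63% in the aorta. Schwann cell markers had 0 of 6 called between genotypes by edgeR, with 4 at an unadjusted p under 0.05 in the DA (23.7% of all genes) and 1 in the aorta (14.0%). These markers summed to 58.0 to 119 CPM in Prdm6-deficient DA and 20.5 to 174 CPM in control DA. Their part in the receptor values was not tested.

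Slc18a2, which loads monoamines into vesicles, was found in every library at 12 to 95 counts, while Th had at most 48 and Slc6a2, the noradrenaline transporter, at most 19 counts in any library. Slc18a2 was not called between genotypes in either vessel.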
